A study of Mus musculus with 4 samples.

Results

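The genes described here are 9 regulators of the ubiquitin system, grouped under the heading of restraint of T cell activation. Nedd4 has instead been described as promoting activation. The group holds the RING ligases Cbl and Cblb, the HECT ligases Itch, Nedd4 and Nedd4l, and the membrane adaptors Ndfip1 and Ndfip2 that switch HECT ligases on. It also holds the transmembrane ligase Rnf128 (also called GRAIL) and the Pellino ligase Peli1. The genes were chosen by name, and all 9 were found among the 50600 genes of the count tables. RNA was sequenced from primary T-helper 17 (Th17) cells of the mouse strain C57BL/6NJ, CD4 T cells of the lineage that makes the cytokine IL-17, in 4 libraries that form a single group and that the labels number as replicates 1 to 4. All libraries carry 1 donor identifier, with sex not collected and age unknown, and nothing says that they came from separate animals or cultures, so SDs and p-values below describe how far these libraries differ, which may be technical only. The labels name no treatment, genotype or time, while a tag of 2 hours appears in the headers without saying from which event. With 1 group, genes can be compared within a library and libraries can be compared among themselves.

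A ubiquitin ligase (E3) picks the protein to be marked and receives ubiquitin from a conjugating enzyme (E2). RING ligases pass ubiquitin straight to the substrate, whereas HECT ligases first carry it on a cysteine of their own, and most HECT ligases of the NEDD4 family stay folded in an inactive state until an adaptor such as Ndfip1 or Ndfip2 binds their WW domains. In T cells these enzymes set the need for costimulation, take signalling proteins and receptors out of use after the antigen receptor has been engaged, and maintain anergy, the unresponsive state that follows antigen receptor signalling without costimulation.

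The libraries held 25847970 to 40652146 counted fragments. The T cell genes Trac, Cd3e and Cd4 were high (3565 ± 251, 226 ± 18.8 and 364 ± 35.1 TPM, SD, n = 4; TPM is the share of a library's transcripts after scaling by exon length). Among Th17 markers, Il17f, Il17a and Rora averaged at least 1 TPM, whereas the receptors Il23r (0.132 ± 0.124 TPM) and Ccr6 (0.207 ± 0.177 TPM) were near 0. Il17f stood at 10.2, 7.04, 11.7 and 20.8 TPM in replicates 1 to 4. It was called as varying between the libraries (edgeR deviance at the trended dispersion, adjusted p = 0.017), whereas Il17a and Rora were not. Among markers of other cells, Ms4a1, Ncr1, Klrb1c and Krt8 had no counts, and the summed level of 3 B cell markers was 0.392 to 1.71 TPM and that of 4 myeloid markers 0.721 to 1.33 TPM per library. Pecam1, listed as a stromal marker and also carried by T cells, was the exception with summed stromal levels of 68.8 to 87.6 TPM. The part of other cells in the results below was not tested.

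Of the 9 genes, 7 stood at 1 TPM or more in every library, and they spanned a wide range of levels. The adaptor Ndfip1 was highest at 708 ± 107 TPM, followed by Cblb at 331 ± 127, Peli1 at 213 ± 12.6, Cbl at 86.8 ± 13.3, Itch at 37.7 ± 2.39, Ndfip2 at 18.5 ± 0.944 and Nedd4l at 14.4 ± 0.914 TPM. Rnf128 (0.924 ± 0.148 TPM) and Nedd4 (0.637 ± 0.119 TPM) lay near or under 1 TPM. In bulk RNA, fewer cells that express a gene and less of its RNA per cell cannot be told apart. The median over the 9 genes was 37.7 TPM, beside 19.8 TPM over all 11567 genes that passed the filter on low counts, a filter that all 9 genes passed.

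**Figure D1:**
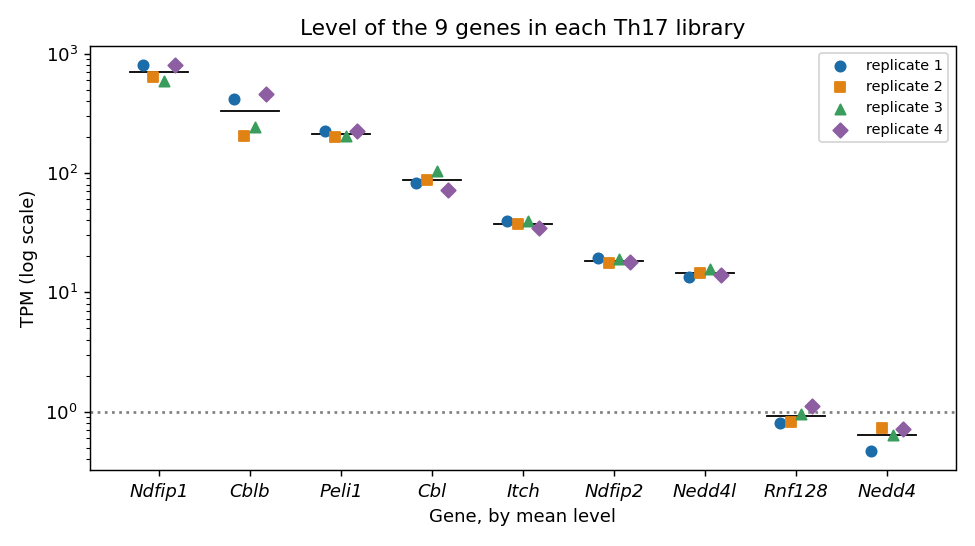
Level of each of the 9 genes in TPM (log axis) in the 4 Th17 libraries, 1 point per library, with a black line at the mean and a dotted line at 1 TPM. Ndfip1 leads at a mean of 708 TPM, the Cblb points lie far apart, and Rnf128 and Nedd4 sit near or under the dotted line.

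The order of the 9 genes was the same in 4 of 4 libraries for each pair of neighbours. Only the neighbours Cblb and Peli1 had overlapping ranges, with a mean difference of 0.55 ± 0.49 on the log2(TPM + 1) scale. Rnf128 and Nedd4, the last neighbours, differed by 0.23 ± 0.10 on that scale, and the 95% counting intervals of their levels (exact Poisson, counting error only) overlapped in every library. Among 21764 protein coding genes, Ndfip1 ranked 172 by mean TPM, Cblb 421, Peli1 710, Cbl 1918 and Itch 3852, while Nedd4 ranked 10226.

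Cblb encodes Cbl-b, the CBL protein that makes T cells dependent on CD28 costimulation and acts on the p85 subunit of PI3 kinase and on Vav1 signalling. It stood at 417, 203, 242 and 461 TPM in replicates 1, 2, 3 and 4. Replicates 1 and 4 were high and replicates 2 and 3 low, with a 2.27-fold distance between the highest and the lowest library. It was the 1 gene of the 9 that varied between the libraries by more than genes of like abundance (edgeR deviance at the trended dispersion, adjusted p = 0.0011). Over all genes, 94 of 11567 were called by this test, a background of 0.813%. Of the 1742 tested genes with a mean of 100 TPM or more, 21 had a wider log2 range than Cblb. The call ended without replicate 2 (adjusted p = 0.0596) and without replicate 4 (adjusted p = 0.0931, edgeR), and held without replicate 1 or 3.

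Cbl encodes c-Cbl, the close relative that marks activated tyrosine kinases and receptors, among them the antigen receptor complex, for removal. It stood at 82.8, 87.2, 105 and 72.7 TPM in replicates 1 to 4. Replicate 3 was highest and replicate 4, the library with the most Cblb, was lowest. Its variation was not called (edgeR adjusted p = 1.0). The ratio of Cblb to Cbl in TPM was therefore uneven, at 5.03, 2.32, 2.32 and 6.34 in replicates 1 to 4. Cblb exceeded Cbl in 4 of 4 libraries by a mean of 1.84 ± 0.75 in log2(TPM + 1) (exact two-sided sign-flip permutation test, p = 0.13, adjusted p = 0.13 over 7 gene pairs). That is the smallest p that 4 libraries allow, so no pair could pass 0.05, and all 7 pairs had this p. Without scaling by exon length the Cblb and Cbl difference was 0.89 in log2(CPM + 1).

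**Figure D2:**
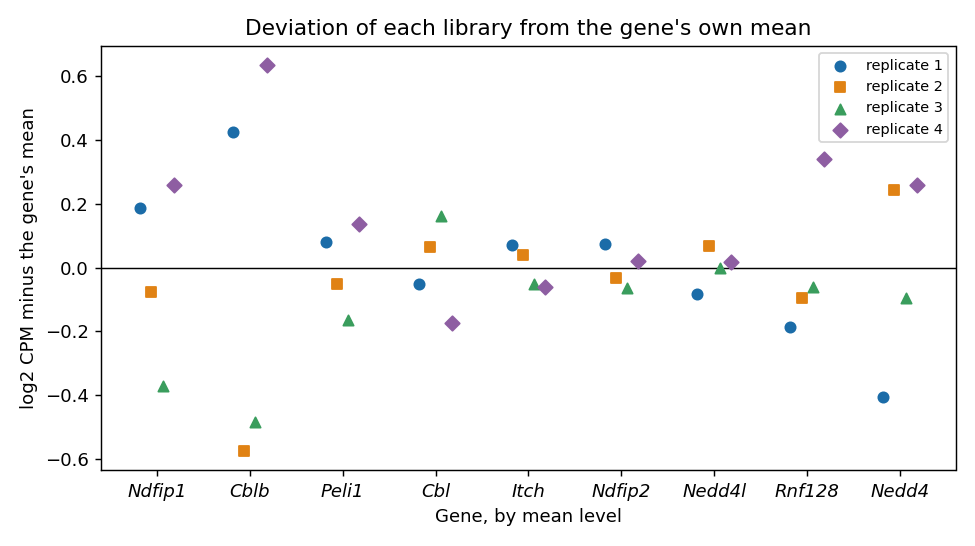
Deviation of each library from the gene's own mean, as log2 of TMM-normalized CPM (counts scaled to the library total), for the 9 genes in order of mean level. Cblb has the widest spread, from -0.57 in replicate 2 to 0.63 in replicate 4, while Itch, Ndfip2 and Nedd4l lie close to 0 in every library.

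RefSeq promoter sequences (build GRCm38.p6, the assembly that mm10 names) were matched for 6 of the 9 genes: Cbl, Cblb, Nedd4, Ndfip2, Rnf128 and Peli1, with a pair of starts for Nedd4. In the 250 bases before each start, both strands were searched for the core GGAAA, read by NFAT, the calcium-dependent factor of T cell activation, and for GTGGGCG, the core read by EGR factors, of which Egr2 and Egr3 are known to induce Cblb and other anergy genes. Of 32851 promoter windows of this length, 55.6% hold the NFAT core and 7.02% the EGR core. A match describes letters only. The sequences of the CBL pair are shown because these relatives differed in how they varied. Cblb held the NFAT core at 2 places, both on the reverse strand, and no EGR core in this window, and the following 30-base stretches, 5′ to 3′ along the gene, carry the cores in capitals.
Cblb (chr16:52031306-52031335): tttttcagttccTTTCCtcgttccactttt
Cblb (chr16:52031346-52031375): agcctaggtccaTTTCCcaacgagttcttc
Both stretches lie before the start of Cblb in RefSeq and in the deposited tables, and inside an exon of a longer transcript in the later GENCODE release M21. Cbl held the NFAT core at 3 places and the EGR core at 1, and its EGR core is 1 base away from an NFAT core, as the capitals show in the 247 bases before its first exon (minus strand).
Cbl (chr9:44234050-44234296): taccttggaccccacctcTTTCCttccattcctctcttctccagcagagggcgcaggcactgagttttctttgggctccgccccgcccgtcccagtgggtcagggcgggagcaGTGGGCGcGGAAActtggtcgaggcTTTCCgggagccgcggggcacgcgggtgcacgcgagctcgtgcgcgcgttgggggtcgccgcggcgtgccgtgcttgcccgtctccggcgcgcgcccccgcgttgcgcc

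By the measure of likeness used here, the root mean square difference of centred log2 CPM over the 4 libraries, the genes nearest to Cblb among 11566 others were Bcl6 (0.0248), Zeb1 (0.0257) and Nhlrc1 (0.0443). Bcl6, a transcriptional repressor of follicular helper cells, stood at 31.7, 15.3, 18.9 and 36.4 TPM in replicates 1 to 4. Zeb1, a zinc finger repressor of Il2 transcription, stood at 70.3, 34.2, 39.7 and 79.3 TPM. Nhlrc1, itself a RING ligase known as malin, stood at 6.97, 3.57, 4.03 and 7.56 TPM. All 3 were high in replicates 1 and 4 and low in replicates 2 and 3, as the choice by likeness fixes. The choice also brings the size of their changes near that of Cblb, so calls for these 3 genes are not separate support. Zeb1 was also called as varying (edgeR adjusted p = 0.00012), as was Bcl6 (adjusted p = 9.7e-05, and 0.0653 without replicate 4), whereas Nhlrc1, on 472 counts in all, was not (adjusted p = 0.53). The interleukin genes lay farther off by this measure, in which the size of the changes counts as well as their order. Il2ra, the high-affinity IL-2 receptor chain, had a distance of 0.113 (rank 10 of 11566) and Il2 one of 0.317 (rank 303), both named after their values were seen. Il2ra stood at 95.8, 57.4, 65.6 and 118 TPM in replicates 1 to 4, and Il2 at 21.9, 12.9, 14.2 and 43.5 TPM. Their levels fell from replicate 4 through 1 and 3 to 2, as for Cblb, with a wider range of 3.39-fold for Il2. Each was called as varying (edgeR adjusted p = 0.0055 for Il2ra and 7.3e-05 for Il2).

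**Figure D3:**
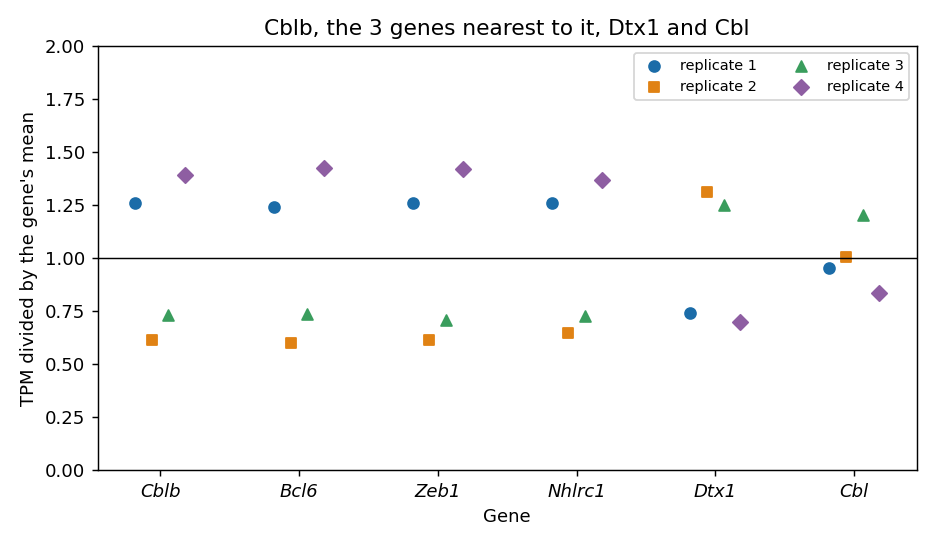
TPM divided by each gene's mean over the 4 libraries for Cblb, the 3 genes nearest to it (Bcl6, Zeb1 and Nhlrc1), Dtx1 and Cbl, 1 point per library. Replicates 1 and 4 lie above the line for Cblb and the 3 nearest genes and below it for Dtx1 and Cbl.

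Itch, the HECT ligase that marks JunB for degradation and whose loss causes inflammatory disease in itchy mice, stood at 39.5, 37.5, 39.5 and 34.5 TPM in replicates 1 to 4. The 4 values lay within 1.15-fold of each other. Its variation was not called (edgeR adjusted p = 1.0). Nedd4l, a relative best known for removing the epithelial sodium channel from the cell surface, stood at 13.5, 14.6, 15.6 and 13.9 TPM, also within 1.15-fold. Itch exceeded Nedd4l by 1.33 ± 0.10 on the log2(TPM + 1) scale, a TPM ratio of 2.63 ± 0.196, in 4 of 4 libraries (same exact permutation test, p = 0.13).

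Nedd4 is the founding member of that family, and in T cells it has been described as promoting activation by marking Cbl-b. It stood at 0.468, 0.723, 0.638 and 0.719 TPM on 54, 97, 53 and 61 counts. Every library was below 1 TPM, and the 95% counting intervals ran from 0.352 to 0.611 TPM in replicate 1 and from 0.550 to 0.924 TPM in replicate 4. On the log2(TPM + 1) scale Itch exceeded Nedd4 by 4.57 ± 0.18, and the difference of Nedd4 from Nedd4l was -3.23 ± 0.11, both in the same direction in 4 of 4 libraries (p = 0.13 for each pair, same exact permutation test). Because Nedd4 is under 1 TPM, the pseudocount sets the size of both: the differences were 5.70 and -4.31 with a pseudocount of 0.1 and 3.34 and -2.13 as FPKM scaled by TMM library sizes. The mean TPM ratio of Itch to Nedd4, with no pseudocount, was 61.5 ± 16.3.

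Smurf1 and Smurf2, HECT ligases of the TGF-beta and BMP pathways, were the highest of 6 other NEDD4 family genes at 52.1 ± 8.44 and 43.9 ± 4.81 TPM. Hecw1 was the lowest, with no counts in any library, which allows up to 0.116 CPM in the shallowest. Of the 6 genes, 4 averaged at least 1 TPM. None of the 5 that could be tested was called as varying.

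Ndfip1 and Ndfip2 are small proteins of intracellular membranes whose PY motifs bind the WW domains of NEDD4 family ligases, and Ndfip1 loss, like Itch loss, gives overactive T cells. Ndfip1 stood at 797, 644, 590.4 and 801 TPM in replicates 1 to 4. It was high in the same libraries as Cblb, replicates 1 and 4, but over a narrower range of 1.36-fold, and its variation was not called (edgeR adjusted p = 1.0). In TMM-normalized CPM, replicates 1 and 4 held the 2 highest values of 4 of the 9 genes (Ndfip1, Cblb, Peli1 and Ndfip2), beside 20.7% of all tested genes. For Ndfip2 this rests on small log2 deviations, 0.022 in replicate 4 against -0.031 in replicate 2. In TPM and in CPM without TMM factors, the highest Ndfip2 values were in replicates 1 and 3. Ndfip2 stood at 19.3, 17.5, 19.2 and 17.9 TPM, a range of 1.11-fold and the narrowest of the 9 genes in TPM. Ndfip1 exceeded Ndfip2 by 5.17 ± 0.23 in log2(TPM + 1), in 4 of 4 libraries (same exact permutation test, p = 0.13). This adaptor alone made up 48.4 to 53.5% of the summed TPM of the 9 genes.

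The size of that lead rests on the gene model. The deposited tables give Ndfip1 an exon length of 930 bases, whereas GENCODE M21 gives 6331 bases, of which 705 are coding. Fragments outside the shorter model were not counted. Ndfip2 has 11553 bases of exon in both releases, of which 1014 are coding. Per count rather than per base, Ndfip1 exceeded Ndfip2 by a ratio of only 3.09 in CPM, against 38.4 in TPM, and the log2(CPM + 1) difference was 1.60. By total counts over the 4 libraries Cblb led with 77470, ahead of Peli1 with 52880, Cbl with 40615 and Ndfip1 with 25025. Cblb and Nedd4l also have longer models in M21, by 1.66 and 2.05 times, while the other 6 genes have the same exon length in both releases. When 1 gene is compared between libraries, each value is divided by the same length.

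Rnf128 encodes GRAIL, a ligase of endosomal membranes that was found as a gene of anergic T cells. It stood at 0.796, 0.826, 0.953 and 1.12 TPM in replicates 1 to 4, on 29, 35, 25 and 30 counts. Replicate 4 alone reached 1 TPM, and the counting intervals of all libraries overlapped, the lowest at 0.533 to 1.14 TPM and the highest at 0.756 to 1.60 TPM. Its variation was not called (edgeR adjusted p = 1.0). Cblb exceeded it by 7.35 ± 0.54 in log2(TPM + 1), in 4 of 4 libraries (same exact permutation test, p = 0.13). With a pseudocount of 0.1 that difference was 8.26, and 6.18 as FPKM. Its promoter is shown as that of the gene with the fewest counts of the 9. The anergy inducers Egr3 and Egr2 stood at 2735 ± 309 and 1324 ± 144 TPM. Binding was not measured, and any link of the promoter letters to the level of Rnf128 was not tested. The 250 bases before its RefSeq start, which lie within the gene because a longer transcript begins upstream, and outside its exons, hold the NFAT core at 2 places and the EGR core at 1, in capitals (plus strand).
Rnf128 (chrX:139610370-139610619): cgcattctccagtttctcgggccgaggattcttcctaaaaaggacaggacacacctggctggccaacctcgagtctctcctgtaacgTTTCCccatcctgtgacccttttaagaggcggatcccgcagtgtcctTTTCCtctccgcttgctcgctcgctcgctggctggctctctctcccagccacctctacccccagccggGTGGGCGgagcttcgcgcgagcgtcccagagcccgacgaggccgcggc
Among the other members, the EGR core also occurred in the Cbl window and in the Ndfip2 window. In Ndfip2 it lay 50 bases before the RefSeq start and inside an annotated exon of that gene. Neither core occurred in the window of Peli1 or in that of the upstream Nedd4 start.

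The relatives of GRAIL were unevenly expressed. Of 8 RING ligases with the same protease-associated domain, 4 had a mean of 1 TPM or more, led by Rnf149 at 367 ± 46.2 TPM and Rnf167 at 169 ± 17.8 TPM. Rnf133, Rnf148 and Znrf4 had no counts in any library. None of the 4 tested was called as varying.

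Peli1 restrains T cell activation by marking the NF-kB subunit c-Rel. It stood at 224, 199, 206 and 223 TPM in replicates 1 to 4, within 1.13-fold of each other. Its variation was not called (edgeR adjusted p = 1.0). In log2(TPM + 1), Cblb exceeded it by 0.89, 0.03, 0.23 and 1.04 in replicates 1 to 4, so the pair was nearly level in replicate 2 (same exact permutation test, p = 0.13). Per count, replicate 2 held less Cblb (15665) than Peli1 (15926). Its paralogs were close to absent, with Peli3 at 0.464 ± 0.252 TPM and Peli2 on 3 counts in all. Cblc, the epithelial CBL gene, had no counts, and Cbll1, a more distant RING ligase also called Hakai, stood at 38.2 ± 1.17 TPM.

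**Figure D4:**
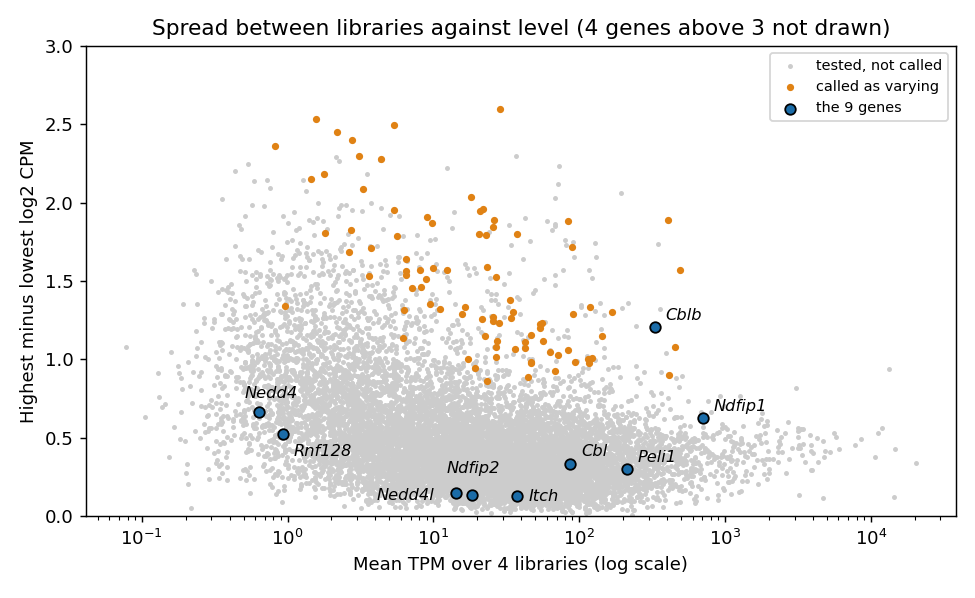
Highest minus lowest log2 CPM over the 4 libraries against mean TPM (log axis) for the tested genes, with those called as varying in orange and the 9 genes in blue. Cblb lies among the orange points at a mean of 331 TPM, and the other 8 genes lie within the grey cloud of genes not called.

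The genes around the 9 were described from 10 lists of 81 genes in all: relatives, E2 enzymes, deubiquitinases, adaptors, regulators, substrates and inducers. Of these, 71 had a mean of 1 TPM or more, 73 could be tested and 1, Dtx1, was called as varying between libraries, against the background of 0.813%. With an unadjusted p under 0.05 stood 7 of the 73, among them Dtx1, the adaptor Sla, Pmepa1, Cd40lg, Nfatc1 and Nfatc2. Over all genes, 692 of the 11567 tested had an unadjusted p under 0.05 in the same edgeR test. With the DESeq2 dispersion trend or size factors, 1 of the 73 was called, and each list given below or above as having no gene called had 0 under both. The median log2 range of the 81 genes, where tested, was 0.30, that of the 9 genes 0.34 and that of all tested genes 0.40.

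Dtx1 encodes Deltex1, a ligase that NFAT induces in anergic T cells. It stood at 32.9, 58.1, 55.3 and 30.9 TPM in replicates 1 to 4 (edgeR adjusted p = 0.032). Replicates 2 and 3 were high and replicates 1 and 4 low, the reverse of Cblb. Its distance from Cblb ranked 11319 of 11566 genes. The call ended without replicate 1 (adjusted p = 0.361), without replicate 2 (0.386), without replicate 4 (0.315), with a common dispersion (0.162) and with no filter on low counts (0.0612). The other ligases of T cell restraint, 6 of them, were all above 1 TPM and not called. Tnfaip3, the A20 ubiquitin-editing enzyme, led at 294 ± 43.4 TPM, Traf6 stood at 86.6 ± 3.01 TPM and Rc3h2, a Roquin paralog, was lowest at 19.6 ± 3.30 TPM.

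**Figure D5:**
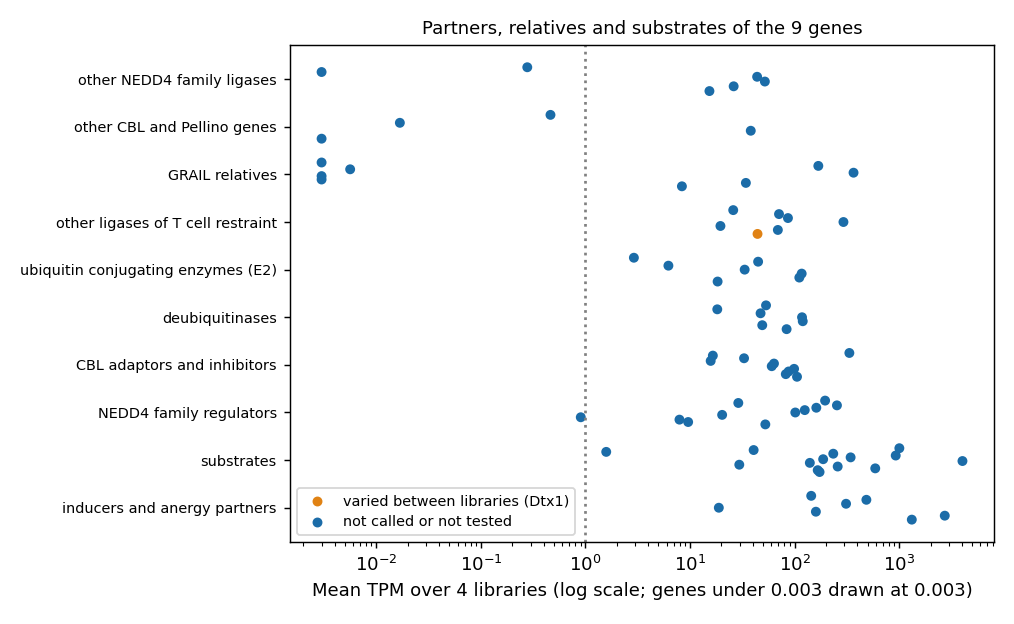
Mean TPM over the 4 libraries (log axis) of the genes in the 10 lists, 1 point per gene, with genes under 0.003 TPM drawn at 0.003 and a dotted line at 1 TPM. Dtx1, in orange, is the only one of the 73 tested genes that was called as varying.

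Enzymes that act before and after the ligases were present throughout. All 7 E2 genes reached a mean of 1 TPM, with Ube2d3 (117 ± 3.72 TPM) and Ube2d2a (111 ± 3.37 TPM), E2 enzymes that serve many RING and HECT ligases, at the top and Ube2v1, the partner of Ube2n in lysine-63 chains, lowest at 2.91 ± 0.750 TPM. All 7 deubiquitinases did so as well, from Usp9x (119.9 ± 10.1 TPM) and Usp12 (118 ± 6.44 TPM) to Otud7b (18.3 ± 1.31 TPM), which acts on ZAP-70. None of these 14 genes was called as varying.

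Adaptors and regulators of the ligases were likewise expressed. All 10 genes of the list of CBL adaptors and inhibitors reached a mean of 1 TPM, from Fyn, a Src family kinase, at 335 ± 5.25 TPM and Grb2, an SH2 and SH3 adaptor, at 106 ± 2.43 TPM to Sla2, an adaptor that brings c-Cbl to the antigen receptor, at 15.8 ± 2.08 TPM. Among 11 regulators of the NEDD4 family, 10 reached a mean of 1 TPM. Txnip, an arrestin-like protein that Itch binds, stood at 255 ± 31.7 TPM, Map3k1, a kinase upstream of JNK and Itch, at 196 ± 14.5 TPM and the arrestin-like adaptor Arrdc4 lowest at 0.904 ± 0.131 TPM. None of these 21 genes was called.

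All 14 substrates had a mean of 1 TPM or more. Junb, the AP-1 subunit that Itch marks, was highest at 4039 ± 369 TPM, and Arhgdia, described as a target of GRAIL, followed at 1006 ± 94.7 TPM. All 7 inducers and anergy partners were above 1 TPM, with Egr3 and Egr2 highest and Nfatc2 lowest at 18.9 ± 4.93 TPM (edgeR adjusted p = 0.35). No substrate, inducer or partner was called as varying.

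In mm10, Cblb lies on chromosome 16 from 52031549 to 52208047, Cbl on chromosome 9 from 44142976 to 44234049, Itch on chromosome 2 from 155133509 to 155226855, Nedd4 on chromosome 9 from 72662346 to 72749852, Ndfip2 on chromosome 14 from 105258573 to 105309298, Peli1 on chromosome 11 from 21091291 to 21150323, Ndfip1 on chromosome 18 from 38418975 to 38464399, Nedd4l on chromosome 18 from 64887756 to 65217826 and Rnf128 on chromosome X from 139563316 to 139673145. The counts cover annotated exons. No member shared exon sequence with another gene on its strand by position, and Ndfip2 alone overlapped an antisense gene, Gm16259, over 4.79% of its exons, which the strand-specific counting separates. Of the distinct 31-mers of each gene in GENCODE M21 transcripts, at most 4.89% (Itch) also occurred in transcripts of another gene. None did for Cblb, Ndfip2 and Rnf128. Shares over the shorter counted models of Ndfip1, Cblb and Nedd4l were not computed.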

How the data were processed

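The authors deposited raw fragment counts per gene for each library, made with featureCounts 1.4.6-p4 on GENCODE mouse M13 exons (mm10), with read pairs counted as fragments, both ends mapped and strand option 2, per the file headers. No option for counting multi-mapping or multi-gene fragments is recorded, so such fragments were left out. The aligner named in the input names is STAR; its version is not stated there. The exon length per gene, another column (other unit) of the deposited tables, was used to compute TPM. TPM depends on the library total and on the gene model. Symbols came from GENCODE M21 (50376 of 50600 genes matched).

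Variation between libraries was tested with edgeR 4.0.16 in R 4.3.3 on all 11567 genes kept by its expression filter, with TMM factors and only an intercept: each gene's negative binomial deviance, taken with the trended dispersion, was referred to chi-square (3 degrees of freedom), with Benjamini-Hochberg adjustment over all tested genes. It assumes that every gene has the dispersion of its trend, so genes that scatter above the trend can be called. The script was tested on counts simulated at the trended dispersion, which cannot show how the test behaves for genes that scatter around the trend. DESeq2 1.42.0 gave alternatives. Gene pairs were compared within libraries by an exact sign-flip permutation test of log2(TPM + 1).

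Total counts were 36298276, 40652146, 26953724 and 25847970 in replicates 1 to 4, and 3 counts, the limit that a count of 0 allows, equal 0.0738 to 0.116 CPM. Intervals and limits cover counting error only. No pair of libraries agreed within sampling noise (chi-square per degree of freedom 17.2 to 57.7), so each was kept as its own library. That measure cannot tell separate animals or cultures from separate preparations of the same cells. Named genes were the 9 members, the 2 highest and the lowest of each list, list genes that varied, and the 3 genes nearest to a member that varied. Further genes of families with few expressed members were named after their values were seen. Some genes of the lists are not reported here. The members and lists were chosen with earlier results of these data known.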

Additional observations from a re-analysis of the deposited data

How the results depend on the processing

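With a threshold of 5 TPM, with TMM-scaled FPKM, with TPM over nuclear protein coding genes and without any 1 replicate, 7 of the 9 genes reached the threshold in every library. The median level over the 9 genes was 11.0 as FPKM, a scale that by construction has no fixed total, and 42.8 as TPM over nuclear protein coding genes, against 37.7 in the main setting. It ran from 37.1 to 38.8 TPM without 1 replicate. The means of the 7 pair differences kept their direction under every alternative run; in CPM with no length scaling, Cblb was below Peli1 in replicate 2 (exact permutation p = 0.25). The 94 varying genes became 256 with a common dispersion and 35 to 60 without 1 replicate, where fewer libraries were tested, and stayed within 1.5 times under DESeq2 size factors, the DESeq2 dispersion trend and no filter. Without 1 replicate, 0 to 1 of the 9 genes were called, and Cblb was the 1 gene in each other setting. No paired analysis was possible because there is 1 group. Precision is limited by 4 libraries and, for Nedd4 and Rnf128, by 265 and 119 counts in all.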
